A study of Mus musculus with 2 samples.

Results

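The respiratory chain genes of mouse pancreatic tumours were taken from the feature list by symbol, as every symbol that starts with Nduf, Uqcr, Cox4 to Cox8, Sdh or Atp5 and every mitochondrial (mt-) protein gene. Ndufb9 and the Ndufaf assembly factors were left out by the rule, and a member had to reach 20 CPM, counts per 1000000 UMIs (unique molecular identifiers, 1 for each captured RNA), in either library. Of 122 symbols that fit, 91 reached that level, 79 in the nuclear and 12 in the mitochondrial genome, among 55361 features in the files and 6053 genes at the same level. The lowest members were mt-Co2 at 22.3 CPM (whole tumour) and 14.7 CPM (CD9hi), Sdhaf1 at 26.6 and 14.8 CPM and Ndufb4 at 23.0 and 26.9 CPM. Of these, mt-Co2 and Sdhaf1 passed through the whole-tumour library alone. Just under the level were Sdhaf3 at 12.9 and 12.8 CPM, mt-Nd4l at 8.56 and 11 CPM and the pseudogene Ndufa12-ps at 10.1 and 6.44 CPM.

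The tumours came from 1 mouse model of pancreatic ductal adenocarcinoma, whose alleles include Pdx1-Flp, Trp53 frt/frt, Rosa26 FSF-creER and Rosa26 mTmG, and both groups share the whole genotype. In this model Flp, driven by the pancreatic Pdx1 promoter, deletes Trp53. One droplet library was labelled whole tumour and one came from cells high in the surface tetraspanin CD9, and neither the age of the animals nor their number is given in the sources used here. With 1 library a group there was no replicate check and no test, so differences are described by size and all intervals are 95% intervals of counting error only. Kept barcodes had 500 or more genes, 1000 or more UMIs and 20% or fewer mt- UMIs, which left 2550 of 3082 in the whole tumour and 5092 of 5500 in the CD9hi library. They held 46270361 and 119632120 UMIs, with medians of 17686 and 21791.5 a barcode, and 2 barcode sequences occurred in both libraries. The labels name GFP among the sorted signals, but its added reference sequence had 0 UMIs in both libraries, so the reporter does not check the labels here. Acinar genes, a list of pancreatic digestive enzymes with Ptf1a, summed to 58479 CPM (whole tumour) and 197 CPM (CD9hi). Epcam, an epithelial adhesion gene, was at 1925 and 1052 CPM, and Vim, a mesenchymal intermediate filament gene, at 1139 and 4862 CPM. Immune genes summed to 15.2 and 84.0 CPM, endothelial genes to 0.605 and 6.53 CPM and islet genes to 1002 and 147 CPM.

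The respiratory chain sits in the inner mitochondrial membrane. Complexes I and II pass electrons from NADH and succinate to ubiquinone, complex III passes them to cytochrome c, and complex IV to oxygen, while complexes I, III and IV pump protons that drive the ATP synthase, complex V. Most subunits are encoded in the nucleus, made in the cytosol and imported, whereas a few hydrophobic core subunits of every complex but II are transcribed and translated inside the mitochondrion, so assembly draws on products of both genomes.

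Fragments of the mitochondrial genome also lie in nuclear chromosomes, and 1 such block on chromosome 1 bears on which mt-encoded genes these counts can show. In GRCm38 sequences, annotated transcripts there were identical to mt-Co2, mt-Atp6, mt-Co3 and mt-Nd4l over all but the last 1 to 3 bases, which is called an identical copy here. The coding end of mt-Co2 (chrM:7013-7696, plus strand) and the same stretch of its copy Gm28661 (chr1:24614885-24615565, minus strand) are shown first because no base of the 681 aligned separates them. The pair below it, mt-Co1 (chrM:5328-6872, plus strand) and Gm29216 (chr1:24615706-24616197, minus strand), differed at 1 of 483 aligned bases, A1066T, counted from the first base of mt-Co1 and written in capitals.
mt-Co2: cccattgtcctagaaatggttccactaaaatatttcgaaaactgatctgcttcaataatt
Gm28661: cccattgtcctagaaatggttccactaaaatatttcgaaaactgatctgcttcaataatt
mt-Co1: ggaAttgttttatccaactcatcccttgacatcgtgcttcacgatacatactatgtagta
Gm29216: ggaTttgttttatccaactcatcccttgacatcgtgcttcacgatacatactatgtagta
The 4 genes with such a copy were at low levels, at 22.3 CPM (mt-Co2), 79.7 CPM (mt-Atp6), 42.4 CPM (mt-Co3) and 8.56 CPM (mt-Nd4l) in the whole tumour and at 14.7, 69.6, 33.4 and 11 CPM in the CD9hi library. Reads from an identical stretch cannot be assigned to 1 of the genes, and how they were counted is not given in the sources used here, so the levels of these 4 are uncertain. Other genes were identical to a transcript on chromosome 1 over part of their length. For mt-Co1 this held for 479 bases after the mismatch, for mt-Nd3 for 342, for mt-Nd4 for the first 876 of 1378 and for mt-Atp8 for the last 43 of 204, and these genes were listed at 849, 539, 2386 and 272 CPM in the whole tumour. The shared stretches of mt-Co1, mt-Nd3 and mt-Atp8 reached the 3′ end of the transcript or within 3 bases of it. Reads come from that end, so the levels of these genes are uncertain as well. The copies were counted as well, given here for the whole tumour and then the CD9hi library. Gm28661, the copy of mt-Co2, was at 15.5 and 8.41 CPM and Gm10925, of mt-Atp6, at 24.9 and 11.9 CPM. Gm28437, of mt-Co3, was at 23.1 and 11.1 CPM, but Gm10222, of mt-Nd4l, had 1 and 0 UMIs. The part of the copies in the low levels was not tested.

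The mt-encoded transcripts were among the most abundant of the chain. mt-Cytb, the cytochrome b of complex III, led both libraries at 6399 and 6171 CPM. The core subunits of complex I followed, with mt-Nd1 at 3225 and 4130 CPM, mt-Nd2 at 2564 and 3152 CPM and mt-Nd4 at 2386 and 2580 CPM. The remaining ones without an identical copy were mt-Co1, the catalytic subunit of complex IV, at 849 and 1023 CPM, mt-Nd5 at 569 and 686 CPM, mt-Nd3 at 539 and 702 CPM and mt-Atp8, of the ATP synthase, at 272 and 284 CPM. Only mt-Nd6, which is the sole member on the other strand of the mitochondrial genome, was low without an identical copy, at 23.6 and 39.4 CPM. These 9 genes kept nearly the same order in both libraries, except that mt-Nd5 and mt-Nd3 changed places.

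**Figure D1:**
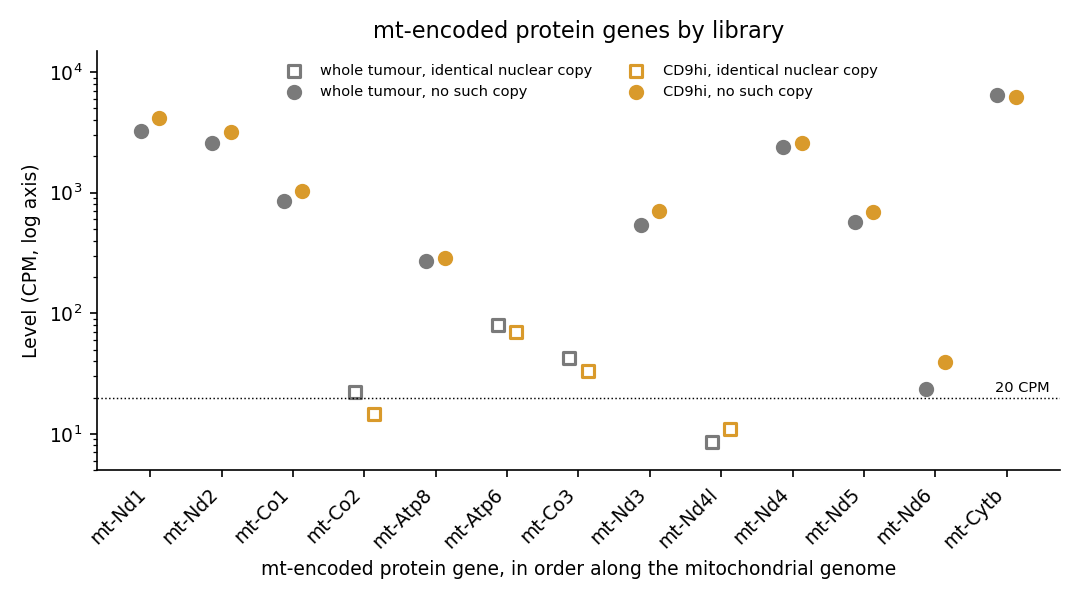
Level of each mt-encoded protein gene in kept barcodes of the whole-tumour and CD9hi libraries, in CPM on a log axis, in order along the mitochondrial genome. Open squares are the 4 genes with an identical nuclear copy, which lie between 8.56 and 79.7 CPM, and filled circles the 9 others, of which mt-Cytb was highest at 6399 and 6171 CPM.

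Between the libraries the chain differed little. mt-encoded members summed to 16971 CPM (whole tumour) and 18886 CPM (CD9hi), a log2 difference of 0.15 (0.15 to 0.16). Nuclear-encoded members summed to 22456 and 23680 CPM, a log2 difference of 0.08 (0.07 to 0.08). Both sums lay under the median over all genes, which was 0.20. On a total without acinar enzymes that median was 0.11, and both sums, put on that same total, lay under it. Gene by gene, the median member was at 0.19 (mt-encoded) and 0.08 (nuclear-encoded). Above the all-gene median of 0.20 were 6 of 12 mt-encoded and 23 of 79 nuclear-encoded members. The ratio of mt-encoded to nuclear-encoded UMIs, which no choice of total affects, was -0.40 on the log2 scale in the whole tumour and -0.33 in the CD9hi library. The median over single barcodes was -0.53 and -0.31, and its middle 90% of barcodes ran from -2.60 to 1.12 in the whole tumour and from -1.54 to 0.67 in the CD9hi library. Barcodes thus spread more widely in the whole tumour. The direction of the nuclear difference depended on the barcodes and the total used. On a total without enzymes it was -0.01. Without barcodes at 10% or more acinar enzymes it was -0.03, without those under 1000 CPM of Malat1 -0.08, and with only barcodes under 1% enzymes and at 1000 CPM of Malat1 or more -0.12, where the mt-encoded difference was -0.05.

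Of the 79 nuclear-encoded members, 1 was at least 1.5-fold higher in the CD9hi library, where 19.1% of all genes were, and 2 were at least 1.5-fold lower, where 10.6% of all genes were. The median member stood at 0.08, with 45 of 79 above 0. The gene that was higher was Cox6a1, the broadly expressed subunit 6a of complex IV, at 236 and 355 CPM with a log2 difference of 0.59 (0.56 to 0.62). It just passed the limit, and without barcodes at 10% or more enzymes its difference was 0.49. Lower were Ndufc2, an accessory subunit of complex I, at 304 and 178 CPM with a difference of -0.77 (-0.80 to -0.74), and Sdhaf1, an assembly factor of complex II, at 26.6 and 14.8 CPM with a difference of -0.84 (-0.95 to -0.74). Both stayed past the limit in all the barcode subsets just named. Sdhaf1 reached 20 CPM only in the whole tumour, so the level asked of members favoured a lower value in the CD9hi library. Among mt-encoded members mt-Nd6 was higher by 0.74 (0.65 to 0.84) and mt-Co2 was 1.52-fold lower, the latter among the genes with an identical copy. Like Sdhaf1, mt-Co2 reached 20 CPM in the whole tumour alone.

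**Figure D2:**
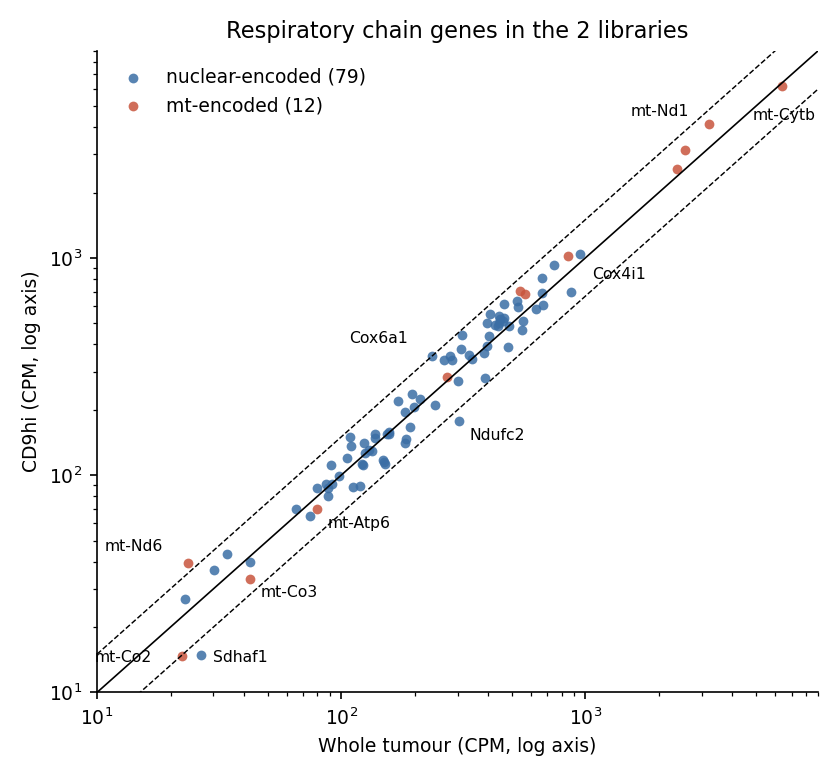
Level of the 79 nuclear-encoded and 12 mt-encoded members in the whole tumour (x axis, CPM, log axis) against the CD9hi library (y axis, CPM, log axis), 1 point a gene. The solid line marks equal levels and the dashed lines a 1.5-fold difference, outside which lie Cox6a1, Ndufc2, Sdhaf1, mt-Nd6 and mt-Co2.

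Complex by complex the sums stayed close. The 37 nuclear genes counted under complex I by symbol, Ndufa4 among them although it has since been placed in complex IV, summed to 6816 CPM (whole tumour) and 6904 CPM (CD9hi), a log2 difference of 0.02. Their members ran from -0.77 for Ndufc2 to 0.41 for Ndufa2, an accessory subunit at 464 and 615 CPM, so a flat sum held differences of both signs. The 6 mt-encoded complex I members, by contrast, were all above 0, from 0.11 for mt-Nd4 to 0.74 for mt-Nd6, and summed to 9307 and 11290 CPM, a difference of 0.28. With 1 library a group, this gap between the genomes within complex I has no replicate check. No sum for complex I alone was computed over kept barcodes under 1% enzymes and at 1000 CPM of Malat1 or more. Over members of all complexes, the median there was 0.00 for the 12 mt-encoded and -0.15 for the nuclear-encoded members. The median of all genes there was 0.12.

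Complex II, which oxidises succinate and belongs to the citric acid cycle as well, is all nuclear-encoded and had the lowest sum of the nuclear-encoded complexes. Sdha, its flavoprotein, was at 65.5 and 70.1 CPM. Sdhb, its iron-sulfur subunit, was at 108 and 149 CPM, a log2 difference of 0.46, and Sdhc, a membrane anchor, at 79.3 and 86.9 CPM, a difference of 0.13. The other membrane anchor, Sdhd, went the other way, at 119 and 88.8 CPM and -0.42. None of these 4 subunits reached 1.5-fold, and their sum differed by 0.09.

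Complex III showed a similar spread. Its 8 nuclear members summed to 2581 and 2704 CPM, a difference of 0.07, with Uqcr11, a small subunit, at 406 and 553 CPM and 0.45 as the highest and Uqcrb, which binds ubiquinone, at 389 and 281 CPM and -0.47 as the lowest. mt-Cytb differed by -0.05.

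The 11 nuclear members of complex IV summed to 6129 and 6267 CPM, a difference of 0.03, and included the 4 most abundant nuclear genes of the chain in the whole tumour. Cox4i1, the general form of subunit 4, was at 948 and 1042 CPM. The small subunits Cox7c, at 877 and 699 CPM, and Cox8a, at 747 and 928 CPM, followed. Cox6b1, which faces the intermembrane space, was at 669 and 606 CPM. The order was another in the CD9hi library, where Atp5b stood above Cox7c, and Atp5e, Atp5h and Ndufa2 above Cox6b1.

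Complex IV subunits with tissue or oxygen-dependent forms were present almost wholly as the general form. Cox4i2, the form known for lung and low oxygen, was at 1.40 CPM (65 UMIs) in the whole tumour and 5.04 CPM (603 UMIs) in the CD9hi library, against 948 and 1042 CPM for Cox4i1. The heart and muscle form Cox6a2 had 5 and 2 UMIs, and Cox7a1 was at 7.35 and 7.76 CPM beside Cox7a2 at 441 and 485 CPM. Cox7a2l, which helps to join complexes III and IV, was at 481 and 391 CPM. The testis form Cox6b2 was at 7.74 and 6.90 CPM, and Cox8b and Cox8c had 0 UMIs in both libraries, against a floor of 3 counts. Ndufa4 was at 550 and 467 CPM, and its low-oxygen relative Ndufa4l2 had 5 and 57 UMIs, a log2 difference of 2.02 (0.83 to 3.82). These minor forms lay far under the level for members, and no share of all genes was computed at such levels. Fibroblast marker genes, at 17.9 and 72.5 CPM, and endothelial ones, at 0.605 and 6.53 CPM, were likewise higher in the CD9hi library, and their part in the values of Cox4i2 and Ndufa4l2 was not tested.

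The ATP synthase stood highest among the nuclear complexes in its difference. Its 16 nuclear members summed to 6455 and 7311 CPM, a difference of 0.18, and 13 of 16 lay above 0. Atp5b, the catalytic beta subunit, was at 664 and 813 CPM (0.29), Atp5e, the epsilon subunit, at 663 and 687 CPM (0.05), and Atp5k, subunit e of the membrane part, at 312 and 441 CPM (0.50). The inhibitor of the enzyme, Atpif1, which the symbol rule does not take in, was at 765 and 618 CPM (-0.31). None of the 16 reached 1.5-fold, and 9 of 16 were above the median of all genes.

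**Figure D3:**
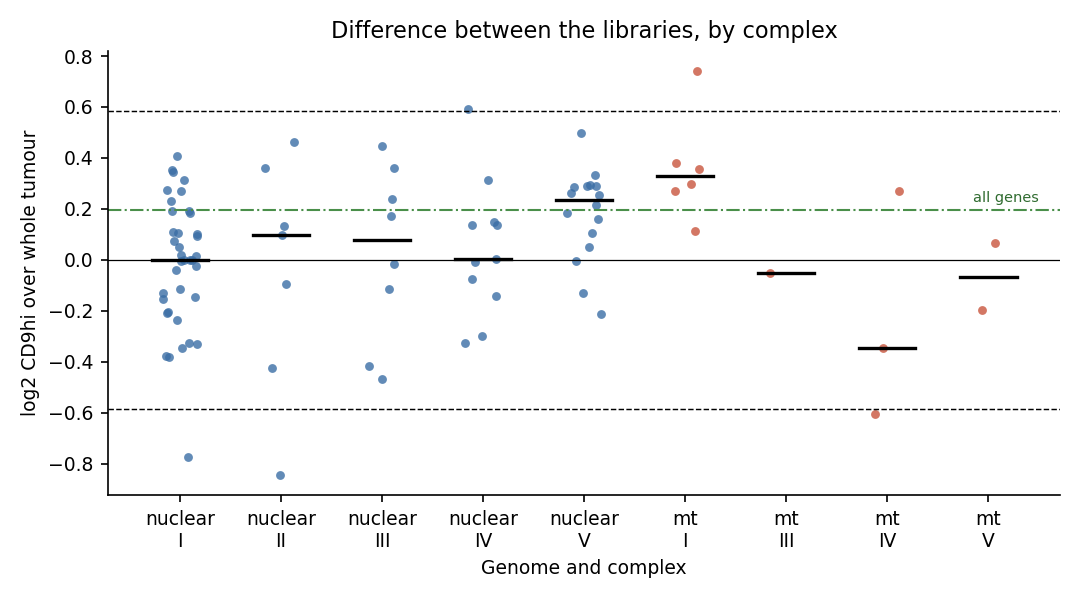
Log2 difference of each member, CD9hi over whole tumour, by genome and complex, 1 point a gene with the median of each group as a black bar. The dashed lines mark 1.5-fold in either direction and the green line the median of all genes, 0.20, and most groups have points on both sides of 0, while all 6 mt-encoded complex I genes lie above it.

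Genes that build or feed the chain, from lists drawn up for this purpose, were read against the same shares of all genes, 19.1% higher and 10.6% lower. Of the assembly factors of complex I at 20 CPM or more, 1 of 5 was higher (Ndufaf2, 47.0 and 71.7 CPM) and 1 lower (Ndufaf3, 22.9 and 14.2 CPM). Ndufaf3 reached 20 CPM in the whole tumour alone. Of those of complexes III to V, 1 of 16 was higher and 1 lower. Among 17 citric acid cycle genes 1 was higher and 0 lower (median 0.09). Among 20 genes of protein import and the cristae 2 were higher and 0 lower (median 0.27), and among 73 mitochondrial ribosomal protein genes 3 were higher and 3 lower (median -0.03). Of the 7 genes that express mitochondrial DNA, 0 were higher and 1 lower (median -0.42, opposite in sign to the mt-encoded mRNAs), and Tfam, which packages that DNA and starts its transcription, was at 31.9 and 23.5 CPM. Gabpa, a nuclear regulator of respiratory genes, was at 24.3 and 44.8 CPM, whereas Nrf1 was at 14.8 and 18.5 CPM and the coactivator Ppargc1a at 1.32 and 0.468 CPM, both under the level tested. The 2 mitochondrial ribosomal RNAs summed to 18392 and 12498 CPM, a difference of -0.56, opposite in sign to the mt-encoded mRNAs at 0.15.

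Promoters of the nuclear members were compared for motifs of factors known for respiratory genes. RefSeq promoters (GRCm38.p6, 250 bases before to 50 after a start) matched 68 of 79 members, with 73 promoters. The NRF1 motif, of which the capitals in Cox6a1 below show 2 instances, was searched like the others on both strands and occurred in 24.7% of these promoters against 4.60% of all 32851, and in 25% of the members against 13.2% of genes at 20 CPM or more that had a promoter. The ETS motif CCGGAAGT was in 6.85% of member promoters and 3.89% of all, but in 7.35% of the members against 10.5% of those expressed genes. The YY1 motif AAGATGGCG was in 9.59% of member promoters and 1.40% of all, and in 10.3% of the members against 4.30% of those genes. The promoters of the genes past 1.5-fold that lead each direction by level are shown, Cox6a1 (chr5:115348909-115349208, minus strand) and Ndufc2 (chr7:97399753-97400052, plus strand), with NRF1 matches in capitals.
Cox6a1: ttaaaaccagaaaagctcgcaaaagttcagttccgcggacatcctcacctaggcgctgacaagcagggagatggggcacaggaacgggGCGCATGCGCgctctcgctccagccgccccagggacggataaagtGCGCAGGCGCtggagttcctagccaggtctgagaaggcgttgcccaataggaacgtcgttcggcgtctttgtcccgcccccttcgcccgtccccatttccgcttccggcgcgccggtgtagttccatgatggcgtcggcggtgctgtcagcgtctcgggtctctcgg
Ndufc2: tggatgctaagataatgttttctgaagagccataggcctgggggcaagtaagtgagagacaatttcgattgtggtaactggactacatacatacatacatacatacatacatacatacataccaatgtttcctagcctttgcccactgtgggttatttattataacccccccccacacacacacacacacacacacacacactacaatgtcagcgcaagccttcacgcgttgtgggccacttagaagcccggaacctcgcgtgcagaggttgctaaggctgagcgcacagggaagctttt
The Cox6a1 promoter held 2 matches and the Ndufc2 promoter none of the 3 motifs. A match describes letters in this window and not a bound site.

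Within the whole tumour, chain RNA was lowest in the barcodes richest in acinar enzymes, and the mt-encoded part was lower still. From under 0.1% through 0.1 to 1%, 1 to 10% and 10% or more enzyme UMIs, in 1840, 152, 251 and 307 barcodes, nuclear-encoded members were at 24295, 23297, 23560 and 10602 CPM. The mt-encoded members were at 19204, 17580, 15337 and 5295 CPM. Their log2 ratio went from -0.34 and -0.41 to -0.62 and -1.0, so it was lower in each bin than in the one before, while nuclear levels were flat over the first 3. In the top bin enzymes made up 43.2% of UMIs. Against the UMIs of other genes, nuclear members were at 18673 CPM and mt-encoded members at 9326 CPM there. The CD9hi library had 4 barcodes at 10% or more, too few for a value.

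The barcodes at 10% or more were set against the 1992 under 1%. All 12 mt-encoded members were at least 1.5-fold lower, and so were 76 of 79 nuclear members, where 89.3% of all genes were lower, and 0 were higher, where 3.59% of all genes were. The median nuclear member differed by -1.21 and the median of all genes by -1.49, 2 values that another total would shift alike. Lowest were Sdhaf2, an assembly factor of complex II, at 10.4 against 38.7 CPM, Ndufs1, the large iron-sulfur subunit of complex I, at 9.88 against 33.6 CPM, and Sdhd at 39.5 against 134 CPM. Ndufv3, a small complex I subunit, was least different, at 71.4 against 91.2 CPM, followed by Ndufb11 at 139 against 192 CPM and Ndufs6 at 127 against 186 CPM. mt-Cytb was at 1927 against 7252 CPM and Cox4i1 at 411 against 1030 CPM. The ratio of mt-encoded to nuclear-encoded UMIs, free of the total, differed by -0.66 (-0.68 to -0.64), and by -0.52 among barcodes of 15000 to 25000 UMIs alone.

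Acinar-rich barcodes were not uniform. Of the 307, 183 had under 1000 CPM of Malat1, a long RNA kept in the nucleus, with an enzyme share of 57.2%, a median of 1097 genes and a ratio of -2.00. The 124 others had an enzyme share of 27.5%, a ratio of -0.67 and nuclear-encoded and mt-encoded levels of 14818 and 9337 CPM. Both classes lay under the -0.34 of barcodes with under 0.1% enzymes.

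**Figure D4:**
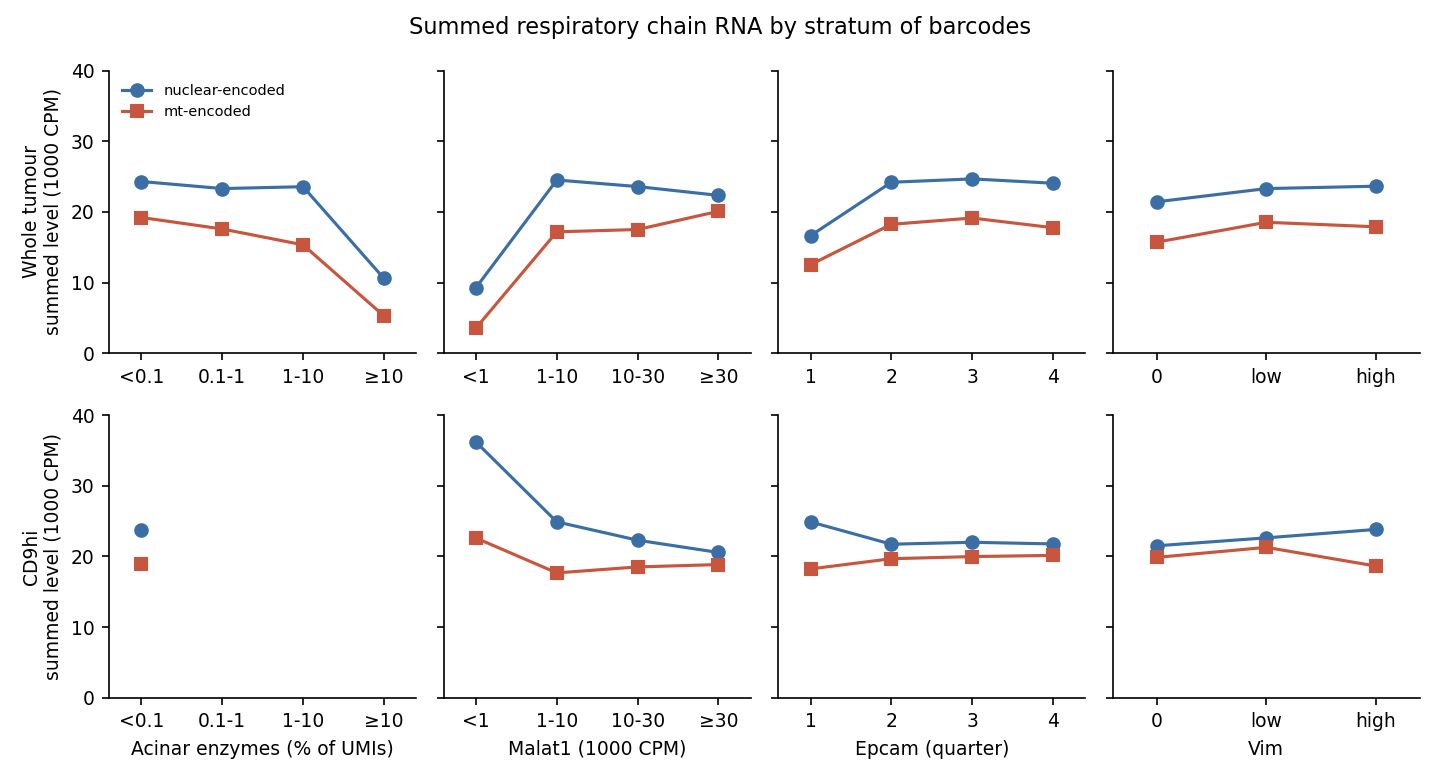
Summed level of nuclear-encoded and mt-encoded members (1000 CPM) in strata of kept barcodes by acinar enzyme share, Malat1, Epcam and Vim, with the whole tumour above and the CD9hi library below. Strata under 20 barcodes are not drawn, and nuclear-encoded RNA reaches 36184 CPM in the Malat1-poor CD9hi barcodes and 9289 CPM in the Malat1-poor whole-tumour barcodes.

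Malat1-poor barcodes held unlike levels of chain RNA in the libraries. In the CD9hi library, 613 barcodes under 1000 CPM of Malat1 had nuclear-encoded members at 36184 CPM, against 24891 CPM at 1000 to 10000, 22301 CPM at 10000 to 30000 and 20566 CPM at 30000 or more. The mt-encoded members were at 22605, 17674, 18519 and 18853 CPM in the same strata, and the log2 ratio was -0.68, -0.49, -0.27 and -0.13. Chain RNA of nuclear origin was thus highest where Malat1 was lowest, and mt-encoded RNA was raised less. These 613 barcodes had a median of 17800 UMIs but 2366 genes, Epcam at 45.8 CPM, Vim at 5308 CPM and acinar enzymes at 0.000997% of UMIs, and ribosomal protein genes took 28.5% of UMIs against 14.6% and 12.1% in the upper strata.

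The 613 barcodes were set against 3766 at 10000 CPM of Malat1 or more. Of the 79 nuclear members 45 were at least 1.5-fold higher, where 11.3% of all genes were, and 1 was lower, where 60.7% of all genes were. Their median was 0.69, against -1.07 over all genes. With enzymes held under 1% the counts were again 45 and 1, where 11.3% and 60.6% of all genes were. By complex, 22 of 37 members of complex I were higher, 1 of 7 of complex II, 4 of 8 of complex III, 9 of 11 of complex IV and 9 of 16 of complex V. Largest were Ndufa12, an accessory subunit of complex I, at 192 against 68.8 CPM, Uqcrb at 582 against 226 CPM and Ndufa5, also of complex I, at 178 against 70.6 CPM. Cox8a was at 1625 against 831 CPM and Cox4i1 at 1491 against 985 CPM. Sdhaf1 was the 1 lower member, at 6.37 against 15.9 CPM and so under 20 CPM in both strata. Ndufs7 (129 against 157 CPM) and Sdhaf2 (38.2 against 44.5 CPM) were next.

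None of the 12 mt-encoded members reached 1.5-fold in either direction in that contrast. mt-Cytb was at 7809 against 5973 CPM and mt-Nd4 at 3383 against 2493 CPM, whereas mt-Nd1 was at 4033 against 4183 CPM, so members of 1 genome and 1 complex did not move alike. The 2 mitochondrial ribosomal RNAs were at 20270 against 11937 CPM. The ratio of mt-encoded to nuclear-encoded UMIs differed by -0.46 (-0.47 to -0.46), and by -0.57 among barcodes of 15000 to 25000 UMIs.

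Higher levels in these barcodes were not particular to the chain. Of 82 cytosolic ribosomal protein genes 78 were higher, with a median of 1.00, while 17 of 72 mitochondrial ribosomal protein genes were higher and 15 lower (median 0.07). Among citric acid cycle genes 5 of 17 were higher and 1 lower, and among import and cristae genes 8 of 21 were higher and 4 lower. The nuclear members are short: by GENCODE coding transcripts of GRCm38 their median length was 671 bases, with 57 of 78 under 1000, against 1826 bases and 24.1% for genes at 20 CPM or more. Of all genes under 1000 bases 23.8% were higher, with a median of -0.17, and of longer genes 6.40%, with a median of -1.38. Among the members, 36 of 57 under 1000 bases were higher, with a median of 0.81, and 8 of 21 longer ones, with a median of 0.37. The part of transcript length, of ribosomal protein RNA in the total or of cell state in the difference was not tested.

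In the whole tumour the Malat1-poor barcodes were mostly other barcodes. The 216 of them had acinar enzymes at 51.5% of UMIs, nuclear-encoded members at 9289 CPM, mt-encoded members at 3572 CPM and a ratio of -1.38, against -0.51, -0.43 and -0.15 in the strata above. Against 1818 barcodes at 10000 CPM or more, 77 of 79 nuclear members were lower, where 94.8% of all genes were, and 0 were higher, where 2.17% of all genes were. Sdhaf2, Ndufs1 and Sdhd were again lowest, at 7.36, 7.66 and 30.9 CPM against 37.5, 33.0 and 124 CPM. With acinar enzymes held under 1%, 25 Malat1-poor barcodes remained, with nuclear-encoded members at 30730 CPM, mt-encoded members at 22196 CPM and a ratio of -0.47. In these, 13 of 79 nuclear members were higher, where 12.5% of all genes were, and 3 lower, where 38.0% of all genes were. The direction of the nuclear-encoded difference in the whole tumour thus turned, from -1.32 to 0.38, once barcodes rich in enzymes were left out, but it rests on 25 barcodes with a median of 3036 UMIs.

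Among kept barcodes, Epcam and Vim strata moved the chain less. Strata limits were quartiles of the kept whole-tumour barcodes, and since 52.4% of these had no Vim UMI, the lowest Vim stratum holds barcodes with 0. In the whole tumour nuclear-encoded members were at 16629, 24191, 24665 and 24055 CPM from the lowest to the highest of 4 Epcam strata, with acinar enzymes at 20.9% of UMIs in the lowest. Between the highest and lowest, 32 of 79 were higher, where 50.6% of all genes were, and 0 lower, where 4.07% of all genes were. Among barcodes under 1% enzymes and at 1000 CPM of Malat1 or more, 2 of 79 were higher, where 10.4% of all genes were, and 0 lower, where 7.42% of all genes were. The higher ones were Ndufa4 at 589 against 380 CPM and Ndufs4, an accessory complex I subunit, at 163 against 106 CPM. The ratio of mt-encoded to nuclear-encoded UMIs was -0.41, -0.41, -0.37 and -0.44 over the 4 strata, a difference of -0.03 that became -0.15 in those barcodes and 0.29 as a difference of medians over single barcodes, so its direction is not settled.

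In the CD9hi library the lowest Epcam stratum had the lowest ratio, though not at every level of Vim. The ratio was -0.45 in its 2948 barcodes and -0.14, -0.14 and -0.11 in the 975, 478 and 691 of the higher strata, a difference of 0.34 (0.33 to 0.34) between the highest and lowest. Nuclear-encoded members were at 24887 CPM in the lowest and 21774 CPM in the highest stratum, and mt-encoded members at 18238 and 20152 CPM. In the highest stratum 7 of 79 nuclear members were lower, where 10.7% of all genes were, and 0 higher, where 16.5% of all genes were. Lowest were Ndufa5 at 62.2 against 104 CPM, Atp5g1, a ring subunit of the ATP synthase, at 254 against 404 CPM and Uqcr10 of complex III at 247 against 386 CPM. The limits on enzymes and Malat1 brought the lowest stratum from 2948 to 2348 barcodes and the highest from 691 to 687. Among barcodes under 1% enzymes and at 1000 CPM of Malat1 or more, 0 of 79 were past 1.5-fold in either direction, where 11% of all genes were higher and 11.7% lower, and the ratio still differed by 0.27 (0.26 to 0.28). There mt-encoded members were at 20140 against 17368 CPM and nuclear-encoded members at 21718 against 22632 CPM. mt-Cytb was at 6625 against 5632 CPM and mt-Nd1 at 4469 against 3856 CPM, and 11 of 12 mt-encoded members were above 0, with mt-Nd6, at 34 against 40.9 CPM, as the exception. Epcam was also split at the whole-tumour median and Vim at the top quartile. The CD9hi ratio was -0.39 in 3765 barcodes low in Epcam and high in Vim. It was 0.01 in 158 low in both genes, with a median of 12911 UMIs against 22514. Among those high in Epcam it was -0.13 in 685 high in Vim and -0.12 in 484 low in Vim. With both limits on enzymes and Malat1, whole-tumour barcodes low in both genes were at -0.09 and the other classes between -0.43 and -0.38.

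Vim strata ran the opposite way in the CD9hi library. The ratio was -0.11 in 155 barcodes with no Vim, -0.09 in 487 with a low level and -0.35 in 4450 with a high level, a difference of -0.24 (-0.26 to -0.22) between high and none. It was -0.17 among barcodes under 1% enzymes and at 1000 CPM of Malat1 or more, and -0.09 among barcodes of 15000 to 25000 UMIs. Of the nuclear members 2 were higher with high Vim, where 10.7% of all genes were, and 1 lower, where 15.6% of all genes were. Atp5g1 was at 361 against 232 CPM and Ndufc1 of complex I at 229 against 152 CPM, while Sdhaf1 was at 14.2 against 21.1 CPM. Among barcodes under 1% enzymes and at 1000 CPM of Malat1 or more none of these 3 was past 1.5-fold (0.50, 0.39 and -0.49), and the counts were 0 higher and 0 lower, where 11.5% and 12.4% of all genes were. In the whole tumour the ratios were -0.45, -0.33 and -0.40. The difference of 0.05 was -0.08 with acinar enzymes under 1% and lower still without the limit on mt- UMIs, so no direction holds there. In that library 4 nuclear members were higher with high Vim, where 29.8% of all genes were, and 1 lower, where 11.1% of all genes were. Sdhaf2 was at 48.8 against 24.7 CPM, Ndufa2 at 607 against 378 CPM and Ndufa11, a membrane subunit of complex I, at 251 against 158 CPM, and Ndufa4 was lower at 399 against 602 CPM. With both limits on enzymes and Malat1, 1 member was higher, where 16.1% of all genes were, and 2 lower, where 14.5% of all genes were. Sdhaf2 (0.75) and Ndufa4 (-0.83) were still past 1.5-fold, Ndufa2 (0.53) and Ndufa11 (0.47) were not, and Ndufs4 (-0.66) was also lower.

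**Figure D5:**
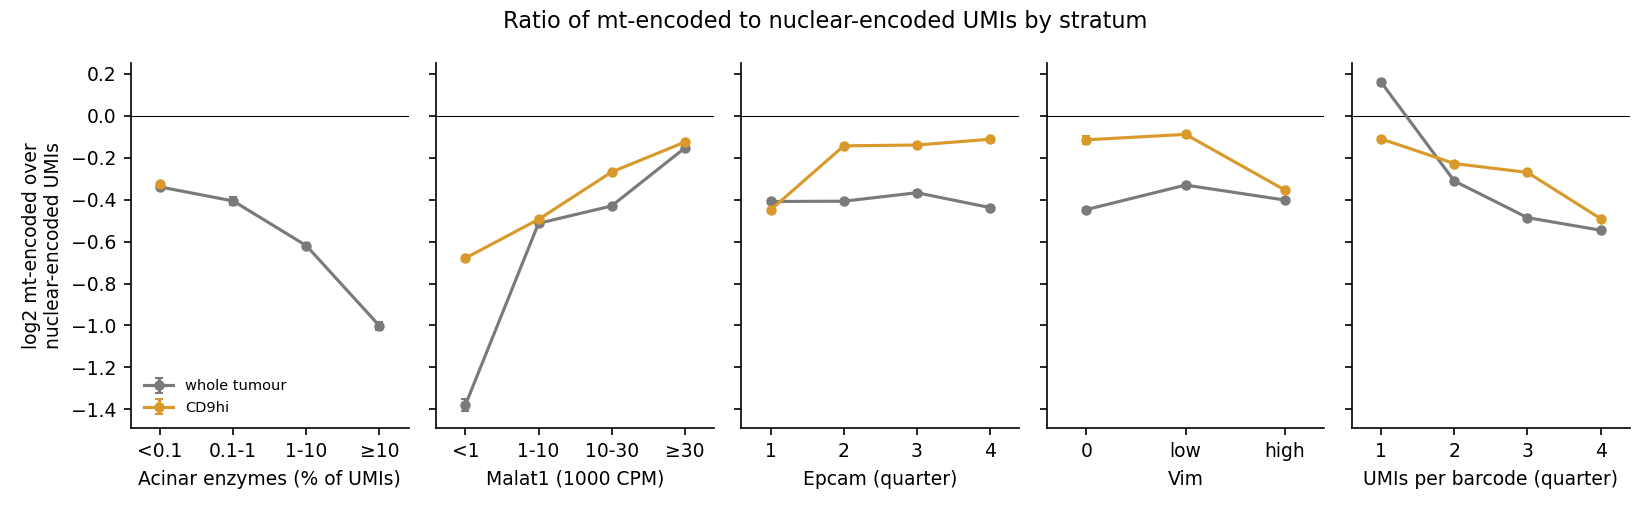
Log2 ratio of mt-encoded to nuclear-encoded UMIs in strata of kept barcodes by acinar enzyme share, Malat1, Epcam, Vim and UMIs per barcode, 1 line a library, with 95% counting intervals that are mostly smaller than the points. The ratio is lowest at -1.38 in Malat1-poor whole-tumour barcodes, and it falls from 0.16 to -0.55 in the whole tumour and from -0.11 to -0.49 in the CD9hi library over quartile bins of UMIs per barcode.

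Depth moved with the ratio in both libraries. Over quartile bins of UMIs per barcode the log2 ratio of mt-encoded to nuclear-encoded UMIs was 0.16, -0.31, -0.49 and -0.55 in the whole tumour and -0.11, -0.23, -0.27 and -0.49 in the CD9hi library. Median UMIs differed between strata, for example 17800 in the Malat1-poor and 21154 in the Malat1-richest CD9hi barcodes, and 22654.5 in the lowest and 19976 in the highest Epcam stratum. Restricted to 15000 to 25000 UMIs, the Epcam difference in the CD9hi library was 0.26 and the acinar and Malat1 differences kept their sign in each library where they could be computed.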

How the data were processed

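Droplet 3′ RNA libraries (Chromium kit version 3.1, per the labels' protocols) of 2 groups, 1 library each, were taken from the deposited matrices, which hold UMI counts for each feature in each barcode. These counts were deposited raw, as their whole-number values and the file headers show. The reads were aligned with Cell Ranger 7.0.0 to GRCm39, per the submitters' processing notes, whereas the file headers give version 6.1.2. Intron counting, the treatment of reads that fit several genes and any pooling of animals are not given in the sources used here. Atp5o occurs under 2 gene identifiers, which were kept apart. One allele of the genotype is not reported here. Groups came from the labelled sub-population.

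Members, lists, strata and alternatives were chosen with earlier results of these data known. CPM is a gene's sum over kept barcodes scaled to a total of 1000000 UMIs in those barcodes. Reads come from transcript ends, so CPM was compared between genes without length scaling. Log2 differences had 0.5 counts added, and a gene counted as higher or lower at 1.5-fold or more, a rule of size and not a test. Background shares are over genes at 20 CPM or more in either library or stratum compared. The members of stratum contrasts stayed those found over whole libraries. Some may thus lie under 20 CPM in both strata and outside the background, as Sdhaf1 did in the CD9hi Malat1 contrast. Intervals are exact conditional binomial, and for differences of ratios Wald intervals on the log scale, at 95%. UMIs from 1 cell share their source, so intervals cover counting error only. Acinar share used 21 enzyme genes. Strata needed 20 barcodes. Within 10% of a stratum limit lay 14 and 18 whole-tumour barcodes for 1% and 10% enzymes and 7 for 1000 CPM of Malat1, but 312 (12.2%) for 30000 CPM of Malat1, where the CD9hi library had 590 (11.6%), and 250 (9.80%) for the top Epcam limit. Doublets were kept in the reported values and removed as an alternative, as the highest Scrublet scores (63 and 224 barcodes), because the automatic call marked 0.549% and 0.0196%.

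The genes named are all mt-encoded protein genes, nuclear members past 1.5-fold, the most abundant nuclear members, isoform pairs, the Sdh subunits, the ATP synthase inhibitor, genes next to 20 CPM, and the 3 highest and 3 lowest nuclear members of each contrast. Members named besides these, the extremes of complexes I, III and V and the regulators, were chosen after their values were seen. Nuclear copies were found with blastn 2.17.0 among annotated GENCODE transcripts of GRCm38, which is not the files' build, and only annotated transcripts were searched. Promoters are from RefSeq on GRCm38.p6. Python 3.11.15, numpy 2.4.6, scipy 1.17.1, pandas 2.3.3 and scanpy 1.11.5 were used, and the ratio and its interval were tested on simulated data.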

Additional observations from a re-analysis of the deposited data

Results flagged for a closer look

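The first 4 pairs of values differed in sign between the 2 libraries under the same contrast of barcodes, and no difference was tested, because each library stands alone. The nuclear-encoded level in Malat1-poor against Malat1-rich barcodes was -1.32 on the log2 scale in the whole tumour and 0.74 in the CD9hi library, with acinar enzymes at 51.5% of UMIs in the former stratum and 0.000997% in the latter. The nuclear-encoded level in the highest against the lowest Epcam stratum was 0.53 in the whole tumour and -0.19 in the CD9hi library. Enzymes made up 20.9% of UMIs in the lowest whole-tumour stratum. Among barcodes under 1% enzymes and at 1000 CPM of Malat1 or more, the values were 0.088 and -0.059. Over all kept barcodes, the log2 ratio of mt-encoded to nuclear-encoded UMIs differed between the Epcam strata by -0.029 and 0.34. As medians over barcodes, however, both differences were 0.29. Between high Vim and none it differed by 0.046 in the whole tumour and -0.24 in the CD9hi library, but with enzymes under 1% the whole-tumour value was also below 0, at -0.077. Barcodes over the limit of 20% mitochondrial UMIs were left out of the reported comparisons and entered only the settings without that limit. Since they were removed for their mitochondrial share, a high ratio in them follows from the selection. Their log2 ratio of mt-encoded to nuclear-encoded UMIs was 5.08 in 469 whole-tumour barcodes with a median of 3795 UMIs and 6.1 in 354 CD9hi barcodes with a median of 1708 UMIs.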

How the results depend on the processing

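No paired analysis was possible because each group is 1 library. With no replicate, no setting shows how far a value would move between animals, and depth limits the scarce members and the 25 Malat1-poor barcodes with few enzymes. The settings with enzymes under 1%, alone or with a Malat1 limit, without genes with identical copies and with 15000 to 25000 UMIs were chosen after seeing the data. Over the alternatives, 29 named genes were followed, the mt-encoded members and a chosen set of nuclear ones. Uqcrb and Ndufa5, which came to pass 1.5-fold in some settings, were not among the 29. Of the values of these 29 genes, 284 stayed on the same side of 1.5-fold, 1 came to pass it and 5 no longer did. A change of sign within 1.5-fold was not counted as a move. Of summary values 41 moved by less than the counting interval or, for counts, by less than 1.5 times, 66 moved further and 8 turned in sign.

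For the difference between libraries, the mt-encoded value (0.15) was 0.0085 without the mitochondrial limit, 0.010 with no filter, 0.159 without doublets, 0.161 without immune or endothelial barcodes, 0.149 with barcodes weighted equally, 0.148 on a total without mt- genes and 0.068 on a total without enzymes. The nuclear-encoded value (0.08) was 0.111, 0.121, 0.112 (equal weights), 0.071 (no mt- genes) and -0.010 (no enzymes) in the matching settings. Without Malat1-poor barcodes the values were 0.034 and -0.078, without barcodes at 10% or more enzymes 0.020 and -0.027, and with both limits, at 1% enzymes, -0.047 and -0.119. The cause of the turns in sign was not tested. Over these settings the median of all genes ran from 0.08 to 0.21.

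The log2 ratio within the whole tumour (-0.40) was -0.18 without the mitochondrial limit, -0.095 with no filter, -0.38 without Malat1-poor barcodes, -0.37 without enzyme-rich ones, -0.29 with equal weights, -0.42 without genes with identical copies and -0.34 with both limits. In the CD9hi library (-0.33) it was -0.28, -0.21, -0.27 (no Malat1-poor), -0.32 (no immune or endothelial), -0.25 (equal weights), -0.34 (no identical copies) and -0.27 (both limits). Without the mitochondrial limit and with no filter, the order of the libraries thus turned, with the CD9hi ratio the lower. Nuclear members 1.5-fold higher numbered 0 in the Malat1, enzyme, both-limits and enzyme-free-total settings, where 17.8%, 13.5%, 14% and 14.9% of all genes were. Those lower numbered 1 from 50 CPM, where 8.73% of all genes were, and 5 with both limits, where 10.5% were. The both-limits setting added Ndufa5, Sdhd and Uqcrb. At any level 3 of 106 were higher and 17 lower. Pseudogenes and genes of few UMIs were among the 106, and no share of all genes was computed there. Without Malat1-poor barcodes alone Uqcrb was lower too (-0.72).

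Differences of that log2 ratio between strata moved as follows, in the order of enzyme, Malat1, Epcam and Vim strata. Under the setting no mitochondrial limit, it was -0.82 for enzymes, -1.11 for Malat1, -0.84 for Epcam, -0.25 for Vim in the whole tumour and -0.50 for Malat1, 0.27 for Epcam, -0.44 for Vim in the CD9hi library. Under the setting doublets removed, it was -0.71 for enzymes, 0.034 for Vim in the whole tumour. Under the setting median over barcodes, it was -1.37 for enzymes, -2.06 for Malat1, 0.29 for Epcam, 0.14 for Vim in the whole tumour and -0.50 for Malat1, 0.29 for Epcam, -0.097 for Vim in the CD9hi library. Under the setting other strata limits, it was -0.77 for enzymes, -1.41 for Malat1, 0.078 for Vim in the whole tumour and -0.45 for Malat1, 0.30 for Epcam in the CD9hi library. Under the setting without Malat1 below 1000 CPM, it was -0.14 for Epcam, 0.0015 for Vim in the whole tumour and 0.27 for Epcam, -0.17 for Vim in the CD9hi library. Under the setting acinar enzymes below 1%, it was -0.15 for Malat1, -0.15 for Epcam, -0.077 for Vim in the whole tumour. Under the setting barcodes of 15000 to 25000 UMIs, it was -0.52 for enzymes, -1.47 for Malat1, 0.14 for Vim in the whole tumour and -0.57 for Malat1, 0.26 for Epcam, -0.091 for Vim in the CD9hi library.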
